A study of Mus musculus with 18 samples.

Results

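This section describes 30 genes of myelin and of mature oligodendrocytes in the hippocampus of young mice, aged mice with unimpaired spatial memory and aged mice with impaired spatial memory. The genes were taken from a named list and matched to the array by gene symbol. No threshold on measured values entered that rule, but the list was drawn up with earlier results of these data known, so it is not independent of them. All 30 had at least 1 probe set, the short set of oligonucleotides that reads 1 transcript on the array. They held 66 probe sets, of which 62 passed the filter on dim signals (the other 4 were further probe sets of Mobp, Opalin, Gjc3 and Evi2a), so all 30 genes were among the 13121 named genes tested. Each gene was read on its probe set of highest mean unless another is named.

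Total RNA of whole hippocampus was hybridised to 1 array per sample, with 6 samples in each of the 3 groups. Young samples are labelled as having unimpaired spatial memory, so the aged impaired and young groups differ in both age and memory state. Neither strain, sex nor age in months is given in the sources used here, and no treatment or genetic change is named for any group. Whether the 6 samples of a group are 6 separate animals is not stated, so the p-values cover only how these samples scatter, which may be partly technical. The deposited signals had a median of 23.5 to 30.5 per array before scaling, and fold changes below are on the scale of log2(signal + 16).

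Myelin is the stack of membrane that oligodendrocytes wrap around axons. It is built from a small set of very abundant proteins, from galactolipids that a short chain of enzymes makes, and from junction proteins that seal and connect its layers. In the hippocampus it lies mostly in the fibre tracts, such as the alveus and the fimbria, and around axons within the layers. Oligodendrocytes arise from dividing precursors, and a few transcription factors hold their identity and switch on the myelin genes. In RNA of whole tissue, fewer oligodendrocytes and less of a transcript in each cell cannot be told apart.

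The starts of the genes that rose are shown for those with a single annotated start, together with Ugt8a, the lipid enzyme of highest mean, which did not pass in any comparison. Each run covers 250 bases before and 50 bases after the start site in RefSeq's annotation of assembly GRCm38.p6, on the strand of the gene. Capitals mark 4 kinds of motif searched on both strands: a SOX core (ACAAAG or AACAAT), a MYRF core (CTGGCAC), an E-box (CAGCTG) and a TATA box (TATAAA). Neighbouring matches can share letters.
Mog, chr17:37023349-37023648, minus strand: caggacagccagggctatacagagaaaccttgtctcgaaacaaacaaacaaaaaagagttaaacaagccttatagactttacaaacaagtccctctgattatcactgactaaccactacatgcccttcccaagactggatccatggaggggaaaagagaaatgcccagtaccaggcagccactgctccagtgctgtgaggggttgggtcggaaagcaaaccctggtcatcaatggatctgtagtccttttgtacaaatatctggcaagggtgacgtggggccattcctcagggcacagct
Pllp, chr8:94696193-94696492, minus strand: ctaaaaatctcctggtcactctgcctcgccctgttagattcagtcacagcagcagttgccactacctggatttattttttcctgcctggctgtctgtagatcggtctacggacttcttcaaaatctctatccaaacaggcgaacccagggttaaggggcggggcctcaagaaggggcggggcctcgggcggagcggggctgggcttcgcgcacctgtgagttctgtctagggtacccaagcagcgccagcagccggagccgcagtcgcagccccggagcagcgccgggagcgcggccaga
Aspa, chr11:73324588-73324887, minus strand: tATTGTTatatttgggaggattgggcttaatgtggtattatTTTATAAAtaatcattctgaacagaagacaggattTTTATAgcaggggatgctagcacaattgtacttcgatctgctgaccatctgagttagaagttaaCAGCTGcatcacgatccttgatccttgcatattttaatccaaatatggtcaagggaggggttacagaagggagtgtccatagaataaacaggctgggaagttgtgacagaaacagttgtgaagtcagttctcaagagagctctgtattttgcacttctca
Apod, chr16:31314759-31315058, minus strand: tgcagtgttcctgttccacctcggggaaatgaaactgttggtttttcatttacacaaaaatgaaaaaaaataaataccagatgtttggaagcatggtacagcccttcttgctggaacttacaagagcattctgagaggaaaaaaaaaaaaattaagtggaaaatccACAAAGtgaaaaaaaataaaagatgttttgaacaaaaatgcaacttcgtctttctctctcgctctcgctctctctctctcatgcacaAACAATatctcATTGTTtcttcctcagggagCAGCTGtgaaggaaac
Qk, chr17:10319312-10319611, minus strand: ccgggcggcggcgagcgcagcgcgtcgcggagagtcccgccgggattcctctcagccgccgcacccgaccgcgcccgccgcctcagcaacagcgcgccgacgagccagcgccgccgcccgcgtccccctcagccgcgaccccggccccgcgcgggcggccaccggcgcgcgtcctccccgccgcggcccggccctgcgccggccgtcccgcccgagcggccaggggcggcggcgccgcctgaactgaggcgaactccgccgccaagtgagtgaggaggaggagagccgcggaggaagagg
Ugt8a, chr3:125938603-125938902, minus strand: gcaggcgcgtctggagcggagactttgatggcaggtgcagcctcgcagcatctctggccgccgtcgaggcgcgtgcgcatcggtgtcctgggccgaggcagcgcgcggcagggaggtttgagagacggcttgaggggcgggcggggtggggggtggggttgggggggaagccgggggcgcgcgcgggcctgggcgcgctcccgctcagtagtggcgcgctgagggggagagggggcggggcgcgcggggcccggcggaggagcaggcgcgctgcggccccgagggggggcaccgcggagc
Of the 30 genes, 22 had an annotated start in this table, with 32 starts in all. A SOX core lay in 12 of the 32 (37.5%), beside 27.0% of all 32851 promoters of this length. The MYRF core lay in 4 (12.5%, beside 5.01%), in Mag, Cnp and Opalin, the E-box in 4 (12.5%, beside 16.3%) and the TATA box in 5 (15.6%, beside 13.6%). Among the 6 sequences shown, Aspa and Apod held matches. The GC content ran from 37.3% in Apod to 81.7% in Qk, where the median of all promoters was 52.7%. A match is a string of letters, and binding was not measured.

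Calls were made in 1 of the 3 comparisons, that of aged impaired with young samples. Of the 30 genes, 7 rose in the aged impaired samples (23.3%) at a Benjamini-Hochberg adjusted p under 0.05 in limma, the threshold used throughout. Among all named genes 1.30% rose and 0.594% fell, and 0 of the 30 fell. The genes that rose were the structural genes Mog, Mag and Pllp, the metabolic enzyme Aspa, and Apod, Il33 and Qk. The median difference of the 30 was 0.27 on the log2 scale, and 26 had a higher mean in the aged impaired samples. Over all named genes the median was -0.003 and 49.2% had a higher mean. At an unadjusted p under 0.05, 17 of the 30 were higher and 1 was lower, where 8.46% and 7.75% of all named genes were.

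Impaired against unimpaired memory is the comparison that the series names. Between the aged groups, by limma, 0 of the 30 genes passed in either direction, beside 0.00762% of all named genes that rose and 0% that fell. The median difference was 0.16, beside 0.007 over all named genes, and 25 of the 30 means were higher with impairment. At an unadjusted p under 0.05, 7 were higher (background 4.42%) and 0 were lower (background 3.64%). For 3 of the 30 genes, Mog, Mag and Pllp, the lowest impaired sample exceeded the highest unimpaired one, where 0.312% of all named genes were separated so and 0.244% in the opposite direction. Of the 62 probe sets 0 passed (background 0.00740% that rose and 0.00370% that fell).

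Between aged unimpaired and young samples 0 of the 30 genes passed either, where 0.114% of all named genes rose and 0.0305% fell. The median difference was 0.07, beside -0.008 over all named genes. At an unadjusted p under 0.05, 4 were higher (background 3.99%) and 0 were lower (background 4.47%). They were Ermn, Aspa, Apod and Tppp3. In 0 of the 30 genes were these groups free of overlap (background 0.526% higher and 0.358% lower), and 0 of the 62 probe sets passed (background 0.111% that rose and 0.0259% that fell). These 3 comparisons share samples with one another, so their values are given side by side and not as separate support.

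**Figure D1:**
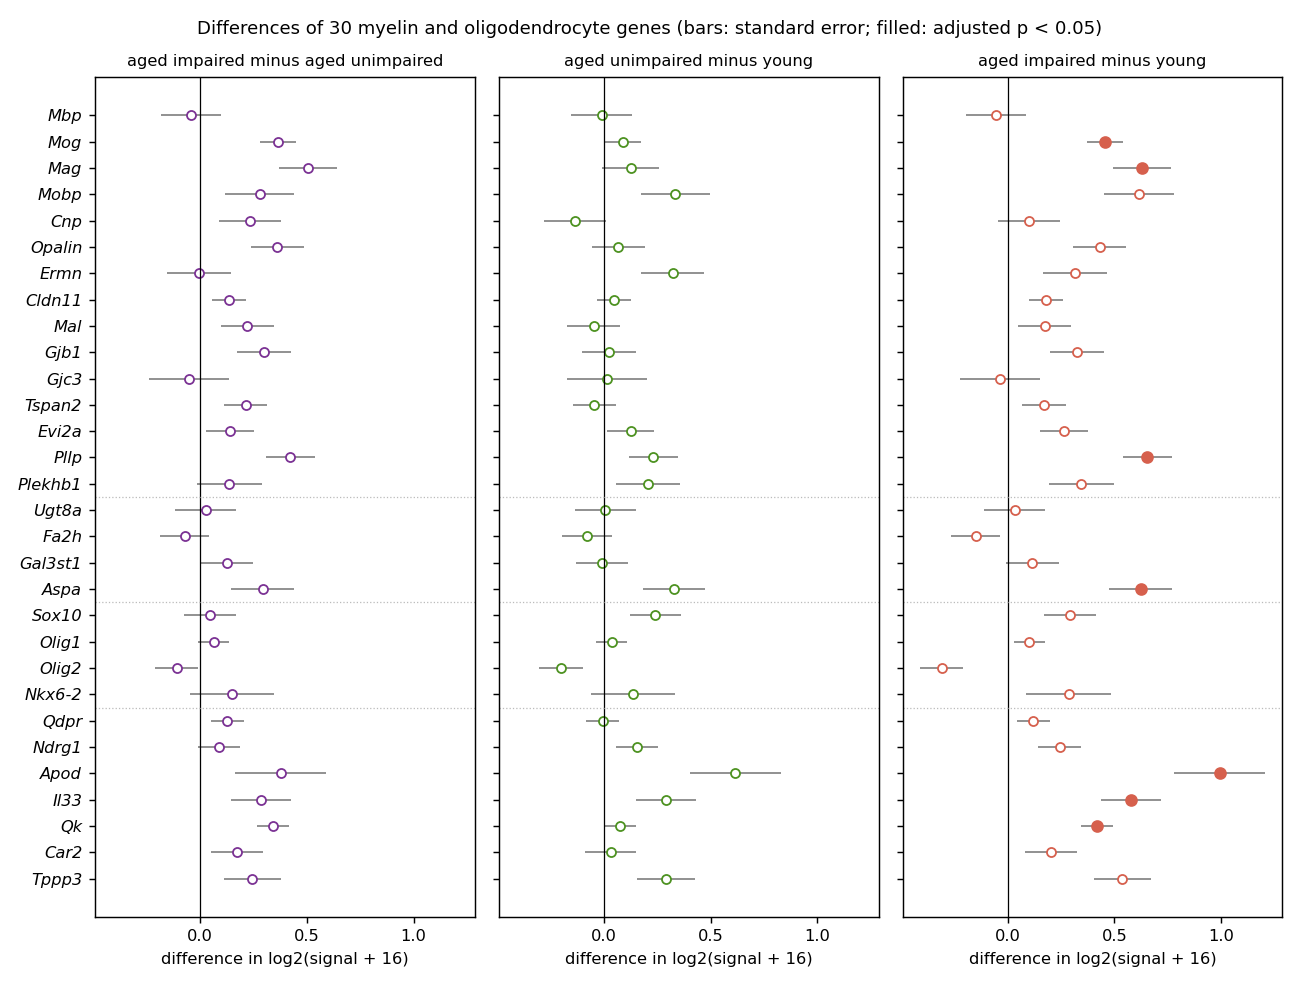
Differences of the 30 genes in log2(signal + 16) for the 3 comparisons, with 6 samples per group; bars are standard errors of the fit, filled points have an adjusted p under 0.05, and dotted lines part structural genes, lipid enzymes, transcription factors and other genes. Filled points occur in the panel of aged impaired minus young, for Mog, Mag, Pllp, Aspa, Apod, Il33 and Qk.

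Mog, an immunoglobulin-like protein of the outermost myelin surface, had log2 values of 9.56 to 10.06 (median 9.93) in the young samples. It lay at 9.83 to 10.18 (median 9.96) in the aged unimpaired samples and at 10.22 to 10.46 (median 10.35) in the aged impaired samples. The impaired samples thus lay above every sample of the other groups, while the other groups overlapped. The difference from young was 0.46 ± 0.08 (SE, n = 6 per group, adjusted p = 0.00969), a 1.37-fold rise. That from aged unimpaired was 0.36 ± 0.08 (adjusted p = 0.249), and aged unimpaired differed from young by 0.09 ± 0.08.

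Mag, a sialic acid-binding protein of the myelin layer that faces the axon, lay at 10.35 to 11.08 (median 10.74) in young samples. It lay at 10.57 to 11.02 (median 10.92) in aged unimpaired and at 11.11 to 11.83 (median 11.27) in aged impaired samples. No impaired sample overlapped with either other group. Mag rose by 0.63 ± 0.14 over young (adjusted p = 0.0249), and the difference from aged unimpaired was 0.50 ± 0.14 (adjusted p = 0.318).

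Pllp, plasmolipin, a proteolipid of membrane rafts, lay at 9.93 to 10.73 (median 10.30) in young, 10.24 to 10.90 (median 10.56) in aged unimpaired and 10.91 to 11.11 (median 10.98) in aged impaired samples. The impaired samples again lay above all others, within a narrow band. Pllp rose by 0.65 ± 0.11 over young, or 1.57-fold (adjusted p = 0.00689). The difference from aged unimpaired was 0.42 ± 0.11 (adjusted p = 0.323), and that of aged unimpaired from young was 0.23 ± 0.11.

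**Figure D2:**
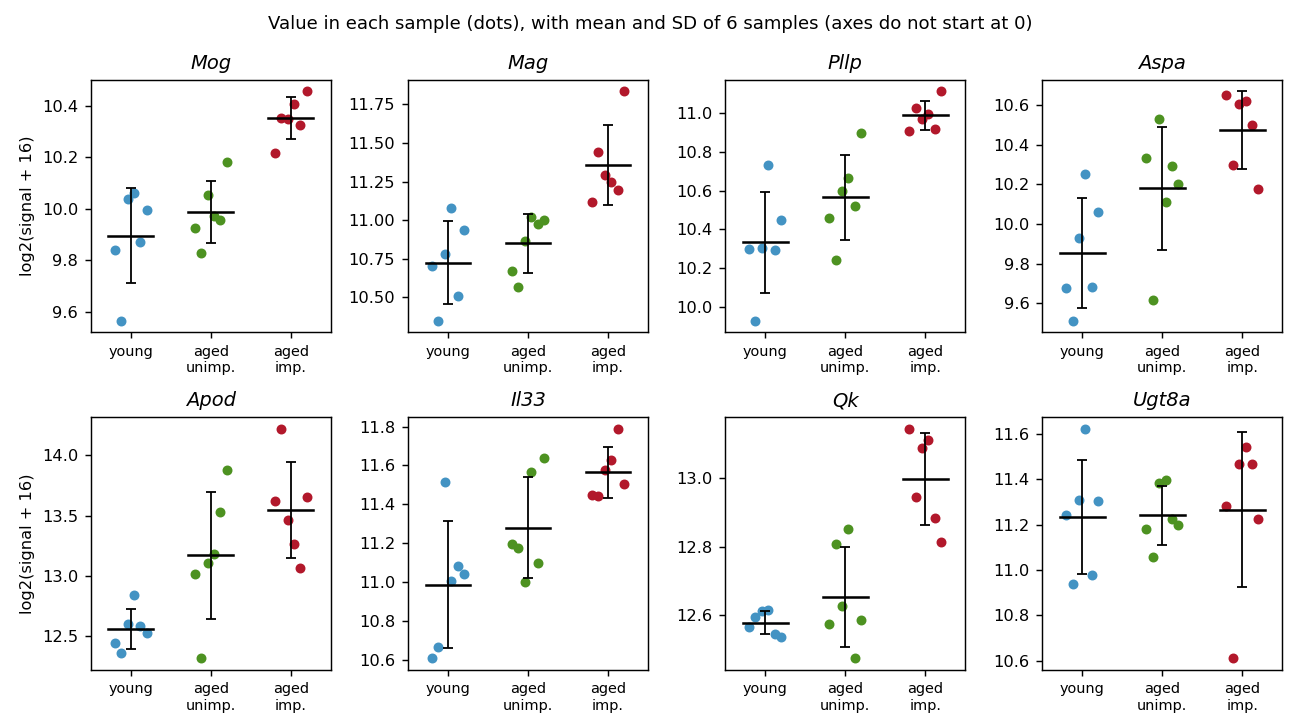
Log2(signal + 16) of each sample (dots) with the mean and SD of 6 samples for the 7 genes that rose in aged impaired over young samples and for Ugt8a; the axes do not start at 0. The aged impaired dots of Mog, Mag and Pllp lie above every other dot, and those of Ugt8a lie among the others.

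Mbp, the basic protein that holds the cytoplasmic faces of compact myelin together, did not pass on its probe set of highest mean. Its values were 15.10 to 15.71 (median 15.43) in young, 15.24 to 15.58 (median 15.41) in aged unimpaired and 15.03 to 15.83 (median 15.37) in aged impaired samples. All 3 groups overlapped. The aged impaired minus young difference was -0.05 ± 0.14, with a 95% interval from -0.35 to 0.24. Mbp has 8 tested probe sets, and their differences between aged impaired and young ran from -0.12 to 0.48. In order of falling mean signal, from 15.40 to 13.68, the 6 brightest gave -0.05, 0.10, 0.23, 0.30, 0.28 and 0.48. The sixth had the lowest adjusted p, 0.111. The dim ones, with means of 10.26 and 8.40, gave -0.12 ± 0.07 and 0.21 ± 0.19. Whether the brightest probe sets were near the top of the scanner's range was not tested.

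Mobp, another small basic protein of compact myelin, had 4 tested probe sets, which gave aged impaired minus young differences of 0.61, 0.67, 0.74 and 0.77 from the brightest to the dimmest. Those at 0.67 and 0.74 passed (adjusted p = 0.0360 and 0.0368), and the brightest did not (adjusted p = 0.0677). On that brightest probe set 4 of 6 impaired samples lay above every young sample.

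Tspan2, a tetraspanin of oligodendrocytes, differed between probe sets. The brightest of its 3 probe sets gave 0.17 ± 0.10 in aged impaired over young, the second 0.57 ± 0.12 (adjusted p = 0.0260) and the third -0.21 ± 0.10. On the second, all impaired samples also lay above all unimpaired ones (0.42 ± 0.12, adjusted p = 0.370). On the third, aged unimpaired minus young was -0.39 ± 0.10 (adjusted p = 0.190). Counted over all 62 tested probe sets, 12 rose between aged impaired and young (19.4%, background 1.03%) and 0 fell (background 0.600%). They belonged to 9 genes, the 7 named above with Mobp and Tspan2.

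**Figure D3:**
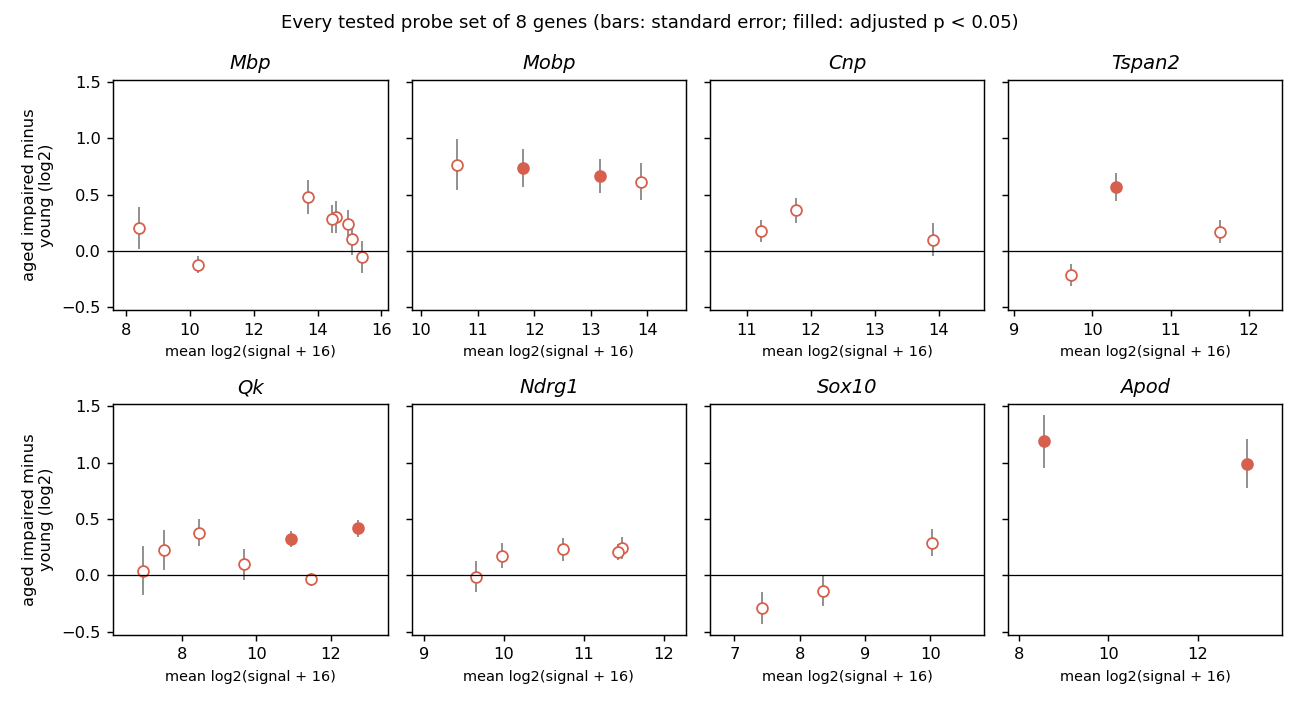
Aged impaired minus young difference (log2) of every tested probe set of 8 genes against its mean log2(signal + 16) over 18 samples; bars are standard errors and filled points have an adjusted p under 0.05. The 4 probe sets of Mobp lie between 0.61 and 0.77, whereas those of Mbp run from -0.12 to 0.48 and those of Tspan2 from -0.21 to 0.57.

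The other structural genes did not pass. Opalin, a transmembrane glycoprotein of oligodendrocytes, was the nearest, at 0.43 ± 0.12 over young (adjusted p = 0.0914) and 0.36 ± 0.12 over aged unimpaired samples. Gjb1, connexin 32, had 0.32 ± 0.13 and 0.30 ± 0.13 in the same order. Its dimmer probe set gave 0.52 ± 0.14 over young (adjusted p = 0.0717). Gjc3, connexin 29, had -0.04 ± 0.19 and -0.05 ± 0.19, on a probe set whose young values ran from 6.12 to 7.48.

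Ermn, an actin-binding protein of the outer cytoplasmic lip, was the structural gene of lowest unadjusted p between aged unimpaired and young samples. It lay at 10.74 to 11.51 (median 11.10) in young, 11.02 to 11.85 (median 11.44) in aged unimpaired and 11.09 to 11.78 (median 11.43) in aged impaired samples. The groups overlapped. Both aged groups were 0.32 ± 0.15 above young, and they differed from each other by -0.01 ± 0.15.

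Cnp, a phosphodiesterase of the cytoplasmic channels in myelin, had 0.10 ± 0.14 over young and 0.24 ± 0.14 over aged unimpaired samples. Its 2 dimmer probe sets gave 0.36 ± 0.11 (adjusted p = 0.118) and 0.18 ± 0.10 (adjusted p = 0.382) over young. On the dimmest of its 3 probe sets the 6 impaired samples did not overlap with the 6 unimpaired ones (0.33 ± 0.10, adjusted p = 0.370). Mal, a raft proteolipid that helps sort membrane, had 0.17 ± 0.12 and 0.22 ± 0.12 in that order. Cldn11, the claudin of the tight junctions between myelin layers, had 0.18 ± 0.08 and 0.13 ± 0.08. The membrane protein Evi2a had 0.26 ± 0.11 and 0.14 ± 0.11, and Plekhb1, a pleckstrin-homology protein, had 0.35 ± 0.15 and 0.14 ± 0.15. Of the 15 structural genes 3 rose over young (background 1.30%) and 12 did not pass, with a median difference of 0.32. Between the aged groups their median was 0.22, with 12 of 15 means higher, where 52.3% of all named genes had a higher mean.

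Of the 4 lipid enzymes 1 rose over young (background 1.30%). Aspa, aspartoacylase, which frees acetate from N-acetylaspartate for lipid synthesis, lay at 9.51 to 10.25 (median 9.81) in young, 9.62 to 10.53 (median 10.25) in aged unimpaired and 10.18 to 10.65 (median 10.55) in aged impaired samples. Of the 6 impaired samples, 5 lay above every young sample. Aspa rose by 0.62 ± 0.15 over young, or 1.54-fold (adjusted p = 0.0403). Aged unimpaired was 0.33 ± 0.15 above young (adjusted p = 0.572), and aged impaired 0.29 ± 0.15 above aged unimpaired (adjusted p = 0.633).

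The 3 enzymes that build myelin galactolipids did not pass in any comparison. Ugt8a, which makes galactosylceramide, lay at 10.94 to 11.62 (median 11.27) in young, 11.06 to 11.40 (median 11.21) in aged unimpaired and 10.61 to 11.54 (median 11.38) in aged impaired samples. The groups overlapped throughout. Its aged impaired minus young difference was 0.03 ± 0.14, with a 95% interval from -0.27 to 0.33. A dimmer probe set of Ugt8a gave -0.47 ± 0.13 (adjusted p = 0.0847). Fa2h, which hydroxylates the fatty acid of these lipids, had -0.15 ± 0.12 (interval -0.39 to 0.09). Gal3st1, which sulfates them, had 0.12 ± 0.12 (interval -0.14 to 0.37).

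A wider list of 12 genes of sphingolipid synthesis, transport and breakdown was tested in full. In aged impaired over young samples 1 rose (background 1.30%) and 0 fell (background 0.594%), with a median of 0.10. Of the 12 means 7 were higher (58.3%), near the 49.2% of all named genes. The one was Gltp, a glycolipid transfer protein, at 0.56 ± 0.11 (adjusted p = 0.0197), with young values of 10.33 to 10.88 and impaired values of 10.97 to 11.22 that did not overlap. Sptlc2 and Elovl1, of ceramide and long-chain fatty acid synthesis, had 0.21 ± 0.09 and 0.21 ± 0.12, and Arsa, which removes the sulfate of sulfatide, had -0.14 ± 0.07. Between the aged groups, and between aged unimpaired and young, 0 of the 12 passed, with 3 and 1 higher at an unadjusted p under 0.05 (background 4.42% and 3.99%).

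None of the 4 transcription factors passed in any comparison by limma. At an unadjusted p under 0.05, 2 of the 4 were counted in aged impaired against young, Sox10 as higher (background 8.46%) and Olig2 as lower (background 7.75%). Sox10, which holds oligodendrocyte identity and drives myelin genes, lay at 9.60 to 10.28 (median 9.71) in young, 9.87 to 10.27 (median 10.10) in aged unimpaired and 9.91 to 10.32 (median 10.14) in aged impaired samples. It was 0.29 ± 0.12 above young in the impaired samples (adjusted p = 0.25) and 0.24 ± 0.12 in the unimpaired samples. Its 2 dimmer probe sets went the other way over young, at -0.14 ± 0.13 and -0.29 ± 0.14 in the impaired samples.

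Olig2, needed to make the lineage and also present in precursors, lay at 9.45 to 10.02 (median 9.76) in young, 9.42 to 9.72 (median 9.55) in aged unimpaired and 9.22 to 9.74 (median 9.42) in aged impaired samples. No aged sample of either group lay above the young median. The difference of the impaired samples from young was -0.31 ± 0.10 (adjusted p = 0.136), and that of the unimpaired samples was -0.20 ± 0.10. Olig1, its neighbour in the lineage, lay at 12.50 to 12.82 (median 12.58) in young, 12.45 to 12.77 (median 12.70) in aged unimpaired and 12.63 to 12.87 (median 12.71) in aged impaired samples, and the groups overlapped. Its impaired minus young difference was 0.10 ± 0.07. Nkx6-2, a homeobox factor of maturing oligodendrocytes, had 0.29 ± 0.20, on a dim probe set with young values from 6.23 to 7.71.

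The other 7 genes included the largest difference of the 30. Apod, a lipid-binding lipocalin, lay at 12.36 to 12.84 (median 12.55) in young, 12.31 to 13.88 (median 13.14) in aged unimpaired and 13.06 to 14.22 (median 13.54) in aged impaired samples. All impaired samples lay above all young samples, and 5 of 6 unimpaired samples did. Apod rose by 0.99 ± 0.21 over young in the impaired samples, or 1.99-fold (adjusted p = 0.0249). The dimmer of its 2 probe sets gave a rise of 1.19 ± 0.24 (adjusted p = 0.0156). In the unimpaired samples the difference from young was 0.62 ± 0.21 (adjusted p = 0.417), and between the aged groups it was 0.38 ± 0.21 (adjusted p = 0.684). Apod is also made by fibroblasts of the meninges. Of 6 markers of those cells, all had a lower mean in aged impaired than in young samples (median -0.44, 0 called). Of the 6, 4 had a higher mean in aged impaired than in aged unimpaired samples (median 0.18, 0 called). In aged unimpaired against young samples 5 of the 6 had a lower mean (median -0.82, 0 called). At an unadjusted p under 0.05, 3 of the 6 were lower there (background 4.47%), and 1 was in aged impaired against young (background 7.75%). The summed scaled signal of the 6 markers ran from 2125 to 7394 in aged impaired, 2215 to 6461 in aged unimpaired and 3514 to 6659 in young samples. None was at 0.

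Qk, quaking, an RNA-binding protein that handles myelin transcripts, lay at 12.54 to 12.61 (median 12.58) in young samples, a span of less than 0.1. It lay at 12.48 to 12.85 (median 12.61) in aged unimpaired and 12.81 to 13.14 (median 13.01) in aged impaired samples. The impaired samples lay above all young samples, and 5 of 6 lay above every unimpaired sample. Qk rose by 0.42 ± 0.07 over young, or 1.34-fold (adjusted p = 0.00822), and the difference from aged unimpaired was 0.34 ± 0.07 (adjusted p = 0.229). Of 7 Qk probe sets the third also rose, by 0.32 ± 0.07 (adjusted p = 0.0342), while the second gave -0.04 ± 0.06. With the mean of all 7 in its place, Qk had 0.21 (adjusted p = 0.183).

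Il33, a nuclear cytokine that oligodendrocytes and astrocytes release when damaged, lay at 10.61 to 11.52 (median 11.02) in young, 11.00 to 11.64 (median 11.19) in aged unimpaired and 11.44 to 11.79 (median 11.54) in aged impaired samples. Only the highest young sample reached into the impaired range. Il33 rose by 0.58 ± 0.14 over young (adjusted p = 0.0470), and the difference between the aged groups was 0.28 ± 0.14. Tppp3, a tubulin-binding protein, had all impaired above all young samples but did not pass (0.54 ± 0.13, adjusted p = 0.0529).

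Qdpr, dihydropteridine reductase, lay at 13.93 to 14.26 (median 14.12) in young, 13.94 to 14.21 (median 14.12) in aged unimpaired and 14.00 to 14.37 (median 14.27) in aged impaired samples. Its groups overlapped, and the impaired minus young difference was 0.12 ± 0.08. Car2, a carbonic anhydrase, had 0.20 ± 0.12, and Ndrg1, a stress-responsive protein of myelinating cells, had 0.24 ± 0.10. In all, 6 of the 30 genes had impaired samples that did not overlap with young ones (20.0%, background 1.44% higher and 0.884% lower): Mog, Mag, Pllp, Apod, Qk and Tppp3.

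The differences of the remaining genes not given above did not pass either. Between aged unimpaired and young samples the structural genes had 0.34 ± 0.16 for Mobp, -0.14 ± 0.14 for Cnp, 0.07 ± 0.12 for Opalin, 0.05 ± 0.08 for Cldn11, -0.05 ± 0.12 for Mal, 0.03 ± 0.13 for Gjb1, 0.01 ± 0.19 for Gjc3, -0.04 ± 0.10 for Tspan2, 0.13 ± 0.11 for Evi2a, 0.21 ± 0.15 for Plekhb1, 0.12 ± 0.14 for Mag and -0.01 ± 0.14 for Mbp. Among the lipid enzymes and transcription factors the values were 0.01 ± 0.14 for Ugt8a, -0.08 ± 0.12 for Fa2h, -0.01 ± 0.12 for Gal3st1, 0.04 ± 0.07 for Olig1 and 0.14 ± 0.20 for Nkx6-2. In the last class they were -0.01 ± 0.08 for Qdpr, 0.16 ± 0.10 for Ndrg1, 0.03 ± 0.12 for Car2, 0.29 ± 0.14 for Il33, 0.29 ± 0.13 for Tppp3 and 0.07 ± 0.07 for Qk. Ermn and Tppp3 were the genes outside Aspa and Apod with an unadjusted p under 0.05 there.

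Between the aged groups, Mobp, Tspan2 and Mbp had 0.28 ± 0.16, 0.21 ± 0.10 and -0.04 ± 0.14. The galactolipid enzymes and the factors had 0.03 ± 0.14 for Ugt8a, -0.07 ± 0.12 for Fa2h, 0.12 ± 0.12 for Gal3st1, 0.05 ± 0.12 for Sox10, 0.06 ± 0.07 for Olig1, -0.11 ± 0.10 for Olig2 and 0.15 ± 0.20 for Nkx6-2. In the last class the values were 0.13 ± 0.08 for Qdpr, 0.09 ± 0.10 for Ndrg1, 0.17 ± 0.12 for Car2 and 0.24 ± 0.13 for Tppp3. Opalin, Gjb1, Tspan2 and Qk joined Mog, Mag and Pllp among the 7 with an unadjusted p under 0.05. Over all 18 samples, the log2 values of genes whose ranges are not given above ran from 13.34 to 14.65 for Mobp, 13.37 to 14.34 for Cnp, 10.10 to 11.03 for Opalin, 10.87 to 11.36 for Cldn11, 12.38 to 13.20 for Mal, 7.99 to 8.84 for Gjb1, 11.21 to 11.82 for Tspan2, 10.09 to 10.96 for Evi2a and 13.14 to 14.26 for Plekhb1 among the structural genes. They ran from 10.17 to 10.98 for Fa2h and 7.97 to 8.84 for Gal3st1 among the enzymes, and from 11.08 to 11.77 for Ndrg1, 12.82 to 13.67 for Car2 and 9.21 to 10.32 for Tppp3 in the last class.

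A wider list of 27 oligodendrocyte genes outside the 30 had 25 tested genes, and the others were not analysed here. In aged impaired over young samples 4 of the 25 rose (background 1.30%) and 0 fell (background 0.594%). The median was 0.26, and 21 means were higher, where 49.2% of all named genes had a higher mean. Myrf, the transcription factor that switches on myelin genes in maturing oligodendrocytes, rose by 0.88 ± 0.15 (adjusted p = 0.00544). It lay at 8.73 to 9.34 in young, 9.07 to 9.67 in aged unimpaired and 9.56 to 10.41 in aged impaired samples, and the impaired and young samples did not overlap. Hapln2, a matrix protein of the nodes of Ranvier, rose by 0.65 ± 0.13, Tmem125 by 0.80 ± 0.17 and Dbndd2 by 0.44 ± 0.10, with adjusted p of 0.0153, 0.0212 and 0.0303. Between the aged groups 0 of 25 passed, with 5 higher (background 4.42%) and 1 lower (background 3.64%) at an unadjusted p under 0.05 and a median of 0.13. Myrf had 0.51 ± 0.15 and Lpar1, a lysophosphatidic acid receptor, 0.36 ± 0.13. Between aged unimpaired and young 0 passed and 4 were higher at that level (background 3.99%), with a median of 0.11.

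Of the precursor markers 1 fell. Gpr17, a receptor of precursors committed to differentiate, fell by 0.71 ± 0.12 in aged impaired against young samples (adjusted p = 0.00532), with no overlap. Aged unimpaired samples did not overlap with young ones either, at -0.61 ± 0.12 (adjusted p = 0.0512), and the aged groups differed by -0.10 ± 0.12. Of 6 tested precursor markers Gpr17 alone passed in aged impaired against young samples (background 0.594% that fell), with a median of -0.10. Pdgfra and Cspg4, of dividing precursors, had -0.04 ± 0.09 and 0.03 ± 0.13. Between aged unimpaired and young samples 0 passed, and 5 of the 6 had a lower mean (median -0.16, range -0.89 to 0.04). At an unadjusted p under 0.05, 2 were lower there (background 4.47%). Between the aged groups 0 passed, and 4 of the 6 had a higher mean (median 0.03, range -0.10 to 0.68). There 1 was higher at an unadjusted p under 0.05 (background 4.42%). The summed precursor signal ran from 2512 to 3148 in aged impaired, 2472 to 2886 in aged unimpaired and 2887 to 3439 in young samples, and none was at 0. Neu4 was not analysed here.

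The arrays differed within groups in how high the myelin genes stood. Each gene was set against its median over all 18 arrays. In the aged impaired arrays 18 to 26 of the 30 genes lay above that median, and the median deviation per array was 0.08 to 0.17. In the aged unimpaired arrays 2 to 21 did, with deviations of -0.32 to 0.08, and replicates 1 and 2 were the low ones with 6 and 2 genes. In the young arrays 1 to 26 did, with deviations of -0.38 to 0.12. Young replicate 4 had 26 genes above the median, as many as the highest impaired arrays, and young replicates 1 and 2 had 4 and 1.

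**Figure D4:**
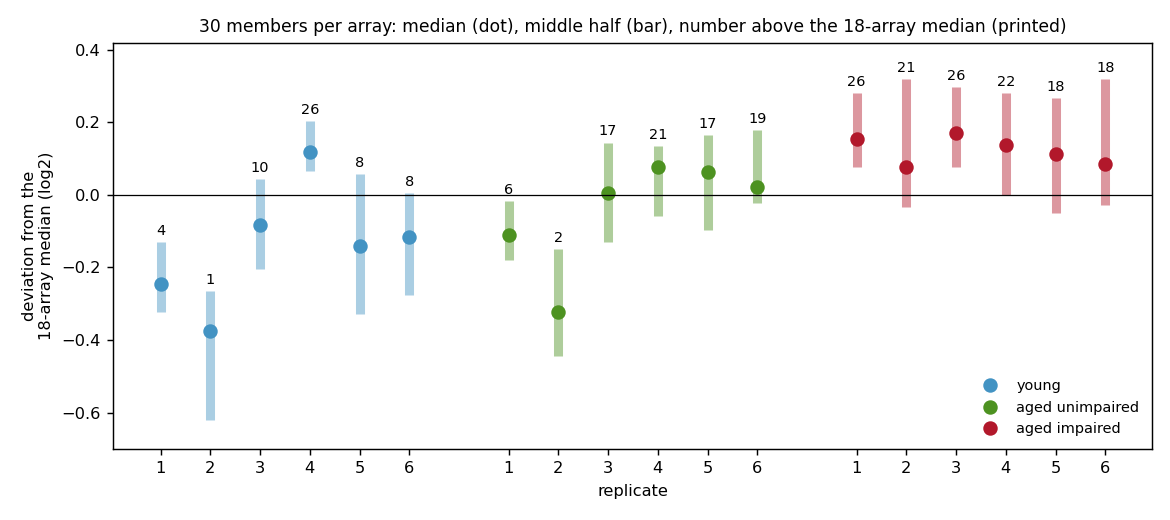
Deviation of the 30 genes from their medians over 18 arrays (log2), for each array by group and replicate; dots are medians over the genes, bars run from the lower to the upper quartile of the genes, and the printed numbers count genes above the median. All 6 aged impaired arrays have a median above 0, while young arrays run from -0.38 to 0.12.

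Markers of other cells were read in the same samples, and calls occurred among those of microglia and astrocytes. Hippocampal markers, 8 of 8 tested and none at 0, had means per array of 10.11 to 10.65 over the 18 arrays. Of these 8, 6 had a lower mean in aged impaired than in aged unimpaired samples (median -0.19), and 0 were called in any comparison. At an unadjusted p under 0.05, 2 were lower there (background 3.64%) and 1 was higher (background 4.42%). Against young samples 6 had a lower mean in aged impaired samples (median -0.09), with 1 lower at that level (background 7.75%). Of 8 tested microglia markers 5 rose in aged impaired over young samples (background 1.30%) and 2 in aged unimpaired over young (background 0.114%). Their medians were 0.59 and 0.45. With impairment, 6 of the 8 had a higher mean than in the aged unimpaired samples (median 0.17, 0 called). Their summed signal ran from 14513 to 19962 in aged impaired, 12926 to 18296 in aged unimpaired and 9980 to 11697 in young samples, and none was at 0. Of 7 astrocyte markers 4 had a higher and 3 a lower mean in aged impaired than in young samples (median 0.07). Of the 7, 1 rose there (background 1.30%), Gfap, by 0.77 ± 0.14 (adjusted p = 0.00992). Astrocyte signal summed to 51410 to 60554, 49676 to 58586 and 45229 to 57163 in the same order of groups. Of 7 neuronal markers 0 were called, and 6 had a lower mean in aged impaired than in aged unimpaired samples (median -0.07). At an unadjusted p under 0.05, 2 of the 7 were lower there (background 3.64%) and 0 were higher (background 4.42%). The neuronal sums were 100665 to 115217, 109212 to 122591 and 100029 to 127307 in the same order of groups. The part of these in the myelin values was not tested.

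Choroid plexus markers varied widely from array to array. Of 10 such markers, all had a higher mean in aged impaired than in aged unimpaired samples (median 0.90) and all had a lower mean in aged unimpaired than in young samples (median -0.87). None was called in these comparisons or between aged impaired and young (median -0.07), and none was at 0. Their mean ran from 7.52 to 11.06 in aged impaired, 7.01 to 11.01 in aged unimpaired and 7.53 to 10.83 in young arrays. On the 12 arrays with the higher values, 5 impaired, 3 unimpaired and 4 young, 0 of the 30 genes were called in aged impaired against young. Over all tested probe sets the calls in that comparison went from 440 on all arrays to 55 on these. The differences there were 0.40 for Mog, 0.59 for Pllp, 0.43 for Qk and 1.03 for Apod, on fewer samples. The median difference between aged groups was then 0.28, and that of aged unimpaired from young was -0.06, which turned its direction. The unimpaired arrays kept were replicates 1, 2 and 6, with 6, 2 and 19 of the 30 genes above their 18-array medians. Those left out, replicates 3, 4 and 5, had 17, 21 and 17. The young arrays left out, replicates 2 and 6, had 1 and 8. With the markers' mean as a covariate on all arrays, 7 genes were called, 6 of them among those called without it. Il33 stood at adjusted p = 0.0501.

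Over 31 alternative analyses Mog and Pllp were called in 30 each, Qk in 29, Mag in 24, Apod in 23, Aspa in 17 and Il33 in 10. Their highest adjusted p were 0.126, 0.116, 0.183, 0.152, 0.155, 0.204 and 0.271 in that order. The count of 7 was 3 without aged impaired replicate 2 or without young replicate 2. Calls over all tested probe sets were then 266 and 324, beside 440 on all arrays. The count was 4 without aged impaired replicate 6 or without young replicate 1, 5 or 6. Calls over all tested probe sets were then 228, 291, 259 and 228 in that order. The sign of each of the 7 differences held in all 31, several of which cannot change a difference.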

How the data were processed

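RNA of 18 hippocampus samples was read on 1 array each. The intensity values are the linear probe set signals that the authors deposited, computed by MAS5 (version not given) per the submitters' processing notes, and every array has a 2%-trimmed mean of 150. Other settings and scanner files were not used here. Here arrays were scaled to a trimmed mean of 500, 16 was added and log2 was taken, which understates changes of dim genes. Leaving out 64 control probe sets and the dimmest 40% of the rest left 27022 of 45101. Symbols came from the platform annotation, updated through RefSeq (GRCm38.p6), where 34741 of 34945 probe sets with 1 symbol matched. Probe sets with several symbols (932) or none (9160) were unnamed.

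Differences between the 3 group means came from 1 fit over 18 samples (limma 3.58.1, R 4.3.3), 2-sided, with Benjamini-Hochberg adjustment over all tested probe sets, and was tested on simulated data. The number of arrays limits the precision (median SE 0.124). Errors after ± are standard errors.

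Members and lists were chosen with earlier results of these data known. Values per sample are given for genes called in any comparison, for the gene of lowest p in each class and comparison, and for the gene of highest mean in each class. The alternatives were quantile normalization, other offsets and filters, a replicate block, fits of 2 groups, means of probe sets, array weights, robust moderation, covariates and leaving out each sample. The fit of 12 arrays was added after seeing the data. Some listed marker genes are not reported here.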

Additional observations from a re-analysis of the deposited data

Results flagged for a closer look

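Each of the 30 genes was checked in each group of 6 for a sample that stood far from the rest, 90 checks in all, and 2 samples did. Chance marks about 1 in 20 such groups. Ugt8a was low in aged impaired replicate 2, at 10.61, where the other 5 samples ran from 11.23 to 11.54. Without that sample the aged impaired minus young difference of Ugt8a was 0.16 (adjusted p = 0.540). Car2 was low in aged unimpaired replicate 2, at 12.96, where the others ran from 13.17 to 13.29. Without it the difference of Car2 between the aged groups was 0.13 (adjusted p = 0.884).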

How the results depend on the processing

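The count of genes called between aged impaired and young, 7 in the analysis reported, was 3 with no filter (Mog, Pllp and Qk) and 0 on the 12 arrays of higher choroid plexus signal, and ran from 3 to 8 when each sample was left out. Under the other 11 alternatives on all arrays it was 5 to 10. Over all probe sets the calls in that comparison went from 440 to 193 with no filter and to 55 on those 12 arrays. The counts of the other comparisons were 0 under all 31 alternatives. The median difference of the 30 genes ran from 0.13 to 0.28 between the aged groups, from -0.06 to 0.12 between aged unimpaired and young, and from 0.18 to 0.35 between aged impaired and young. The log2 ratio of 3 prime to 5 prime control signals, a measure of RNA quality, differed between groups. Its mean was 0.30 in aged impaired, 0.36 in aged unimpaired and 0.31 in young arrays (SD 0.05, 0.06 and 0.07). With that ratio as a covariate the median between the aged groups was 0.21, beside 0.16 without it. With the sample number as a replicate block 5 genes were called, without Apod and Il33. Deviations of same-numbered samples from their group means correlated at -0.25 to 0.10. The labels do not say what the numbers stand for, so shared handling of same-numbered samples cannot be judged from this. Of 2567 values of differences that did not pass, recomputed under the alternatives, 99 had the opposite sign. Filters, the replicate block, fits of 2 groups and robust moderation cannot change the fitted difference of a probe set. Leaving out a sample of the group not compared cannot either. Many of those signs were therefore fixed in advance. With 6 arrays per group, the 95% interval of Ugt8a spans -0.27 to 0.33, so shifts of that size were not resolved.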

Other observations

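The spread of the 30 genes within groups is given beside that of all named genes. The median SD of the 30 genes was 0.25 in young, 0.20 in aged unimpaired and 0.19 in aged impaired samples. Over all named genes it was 0.17, 0.17 and 0.18. The SD was largest in the young group for 16 of the 30 genes, where 30.4% of all named genes had it there, and smallest in the aged impaired group for 15 of the 30, beside 29.2%. Gjc3, on a dim probe set with a mean of 6.89, had an SD of 0.52 in young and 0.09 in aged impaired samples. Qk went the other way, with 0.03 and 0.13. The difference in spread was not tested.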
